A study of Mus musculus with 6 samples.

Results

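Messenger RNAs of 9 megakaryocyte and platelet genes were followed in mouse erythroid progenitors given a glucocorticoid alone or together with a PPARα agonist. The genes were taken by symbol as platelet granule and glycoprotein genes, by a rule that uses no measured value, although earlier results of these data were known when they were proposed: Pf4, Ppbp, Itga2b, Itgb3, Gp1ba, Gp1bb, Gp5, Gp9 and Vwf. All 9 were present among the 37620 genes of the deposited count tables, and all 9 passed the filter on low counts that left 14125 genes for testing.

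The cells were burst-forming unit erythroid progenitors (BFU-E) from E14.5 fetal liver of 129/SvImJ mice. They had been depleted of cells bearing lineage markers, Sca-1, CD16/32, CD34 or CD41 and then sorted as c-kit positive cells with the lowest 10% of CD71 staining. CD41 is the protein of Itga2b, so that the sort had selected against the surface product of one of the 9 genes. The 3 groups had 2 libraries each of polyA RNA: untreated cells, cells given 100 nM dexamethasone (Dex, a synthetic glucocorticoid), and cells given 100 nM dexamethasone with 10 μM GW7647 (which activates PPARα, a fatty acid sensing nuclear receptor). The medium held 100 ng/mL SCF, 40 ng/mL IGF-1 and 2 U/mL Epo in each case, and the treatments lasted 12 h by the labels. Column headers in 1 of the 2 deposited tables read 36 h instead, and no group had GW7647 alone. The labels give no time for the untreated cells. Time in culture and Dex therefore cannot be told apart in comparisons with untreated cells. The labels do not say whether the 2 libraries of a group came from separate cultures, so the p-values measure the spread between these libraries only.

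Megakaryocytes are the bone marrow and fetal liver cells that shed platelets, and they arise from progenitors that share many transcription factors with the red cell lineage. Platelets store the chemokines encoded by Pf4 and Ppbp, together with von Willebrand factor (Vwf), in their alpha granules. At a wound, the receptor complex of the Gp1ba, Gp1bb, Gp5 and Gp9 products binds von Willebrand factor, and the integrin made of the Itga2b and Itgb3 chains then binds fibrinogen and links platelets to each other. Promoters of such genes are known for binding sites of GATA and ETS family transcription factors.

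The 250 bases upstream of the annotated start were at hand for 7 of the 9 genes (RefSeq, mouse build GRCm38.p6; Itgb3 and Vwf had no entry). They are shown here for the pair of genes with the largest differences from untreated cells under Dex, Pf4 and Ppbp, for the pair with the smallest difference under Dex, Itga2b and Gp5, and for Gp1ba. Capitals mark GATA words (AGATAA or AGATAG or TGATAA or TGATAG) and ETS words (AGGAAG or CGGAAG), each searched on both strands, and every sequence reads 5′ to 3′ along the gene's own strand up to the base before the start. The windows are chr5:90772185-90772434 (plus strand) for Pf4, chr5:90768268-90768517 (plus) for Ppbp, chr11:102469884-102470133 (minus) for Itga2b, chr16:30310782-30311031 (minus) for Gp5 and chr11:70638872-70639121 (plus) for Gp1ba.
Pf4: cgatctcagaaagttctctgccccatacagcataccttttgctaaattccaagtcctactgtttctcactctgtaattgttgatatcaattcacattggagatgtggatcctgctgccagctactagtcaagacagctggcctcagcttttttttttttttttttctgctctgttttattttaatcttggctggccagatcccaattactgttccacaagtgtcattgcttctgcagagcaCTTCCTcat
Ppbp: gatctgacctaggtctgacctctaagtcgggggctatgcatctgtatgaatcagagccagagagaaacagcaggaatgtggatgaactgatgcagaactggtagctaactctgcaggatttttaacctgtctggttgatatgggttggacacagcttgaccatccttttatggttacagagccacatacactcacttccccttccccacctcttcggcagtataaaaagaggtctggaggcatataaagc
Itga2b: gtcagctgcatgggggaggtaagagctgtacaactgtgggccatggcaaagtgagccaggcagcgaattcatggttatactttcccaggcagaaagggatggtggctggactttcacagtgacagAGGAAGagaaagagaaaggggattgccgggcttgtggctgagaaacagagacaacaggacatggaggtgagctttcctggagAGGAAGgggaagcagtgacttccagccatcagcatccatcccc
Gp5: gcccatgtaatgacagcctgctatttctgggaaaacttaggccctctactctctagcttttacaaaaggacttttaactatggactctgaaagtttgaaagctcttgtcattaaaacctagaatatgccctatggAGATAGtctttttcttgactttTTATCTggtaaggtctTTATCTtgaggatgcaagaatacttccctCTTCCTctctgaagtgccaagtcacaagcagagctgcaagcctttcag
Gp1ba: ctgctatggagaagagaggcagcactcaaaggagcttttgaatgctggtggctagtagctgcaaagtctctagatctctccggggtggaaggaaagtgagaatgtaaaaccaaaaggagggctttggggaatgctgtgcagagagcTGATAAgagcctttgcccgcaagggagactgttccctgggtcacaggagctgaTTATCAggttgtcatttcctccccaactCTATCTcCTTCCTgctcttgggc

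Gp1ba had GATA words beginning 104, 51 and 23 bases before the start and an ETS word beginning 16 bases before it, with no overlap between them. Gp5 had GATA words at 115, 93 and 77 bases and an ETS word at 48 bases before its start. The bases just after that start were not found together in a GENCODE M21 transcript of Gp5, unlike those of Pf4, Ppbp, Itga2b and Gp1ba. Distances for Gp5 are less certain for that reason. Itga2b had ETS words at 125 and 43 bases and no GATA word, Pf4 had 1 ETS word 9 bases before its start, and Ppbp had neither kind. Among the 7 genes, 3 windows held a GATA word and 6 an ETS word, beside 26.5% and 39.2% of 32851 windows of the same length from all genes. The glucocorticoid receptor half-site AGAACA was in 0 of the 7 windows and in 16.1% of all windows. These matches describe the letters of the windows only. Gp1ba and Gp5 both held 3 GATA words, and a relation between such words and the differences with Dex was not tested.

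The libraries held 35970286 to 54174801 counts. Globin transcripts took 6.48 and 7.15% of the counts of untreated cells and 2.75 to 3.12% of those of the 4 treated libraries, and mitochondrial transcripts took 1.72% in Dex replicate 1 against 2.46 to 2.88% elsewhere. Values below are counts brought to a common library size with edgeR's TMM factors, called normalized counts. Differences are on the log2 scale with their standard errors, from the quasi-likelihood test of edgeR, and p-values were adjusted by Benjamini-Hochberg across the 14125 genes, with a threshold of 0.05.

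The messages of 7 of the 9 genes were lower with dexamethasone than in untreated cells. Adding GW7647 to dexamethasone lowered 7 of the 9 further or for the first time. With both agents all 9 were below untreated cells and none was above, in every alternative fit tried. The median log2 difference of the 9 genes was -1.32 with Dex, -0.49 on adding GW7647 and -1.77 with both, while the median of all tested genes was 0.01, 0.00 and 0.02. Much of the transcriptome differed between Dex and untreated cells: 51.6% of tested genes were called, 25.5% higher and 26.0% lower. Adding GW7647 called 9.73%, of which 2.15% were higher and 7.58% lower, and both agents against untreated called 49.7%, with 24.7% higher and 25.1% lower. These comparisons share libraries, since the Dex group enters both steps and the untreated group enters the comparisons with Dex and with both agents, and their values are given side by side for that reason. In bulk RNA, fewer cells of a type and less RNA per cell cannot be told apart.

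**Figure D1:**
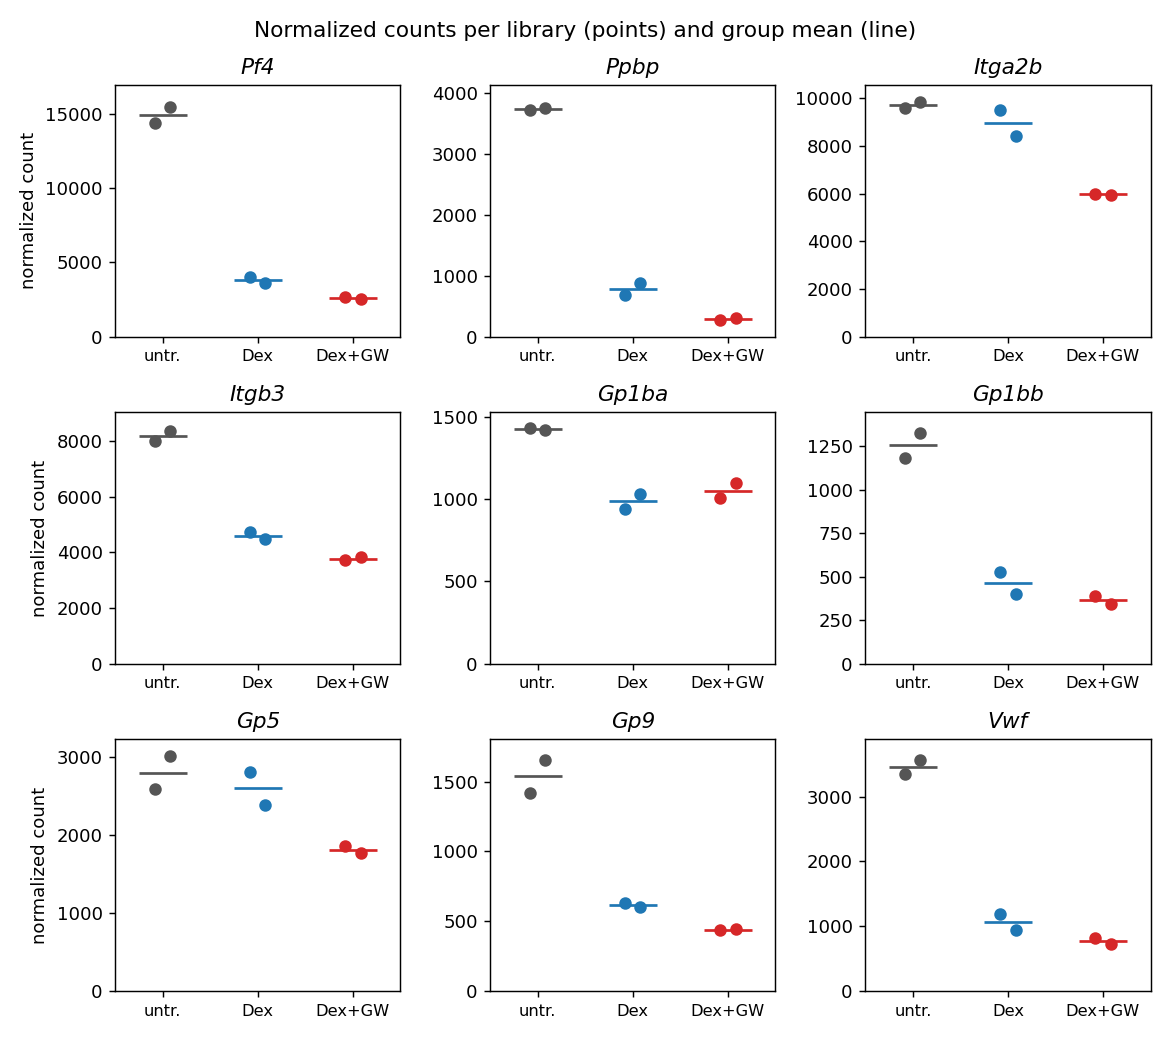
Normalized counts of the 9 genes (vertical axes from 0) in each of the 6 libraries, by group, with untreated cells in grey, Dex in blue and Dex with GW7647 in red; points are libraries and lines group means. Pf4 went from 14420 and 15510 to 4033 and 3584 with Dex, whereas the Gp5 libraries of those groups overlapped.

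The granule chemokines showed the largest differences of the 9 from untreated cells, both with Dex and with both agents; on adding GW7647, Itga2b (-0.59) differed slightly more than Pf4 (-0.55). Pf4, which encodes platelet factor 4, a heparin-binding chemokine, measured 14420 and 15510 normalized counts in untreated cells, 4033 and 3584 with Dex, and 2698 and 2514 with Dex and GW7647. The 3 groups did not overlap, and the level was lower at each step. Against untreated cells Pf4 was 3.93-fold lower with Dex (log2 difference -1.97 ± 0.07, adjusted p = 1.5e-08), and it was 1.46-fold lower again on adding GW7647 (-0.55 ± 0.07, adjusted p = 0.000808). With both agents it was 5.74-fold below untreated cells (-2.52 ± 0.07, adjusted p = 6.05e-09).

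Ppbp encodes pro-platelet basic protein, the precursor of beta-thromboglobulin and of a chemokine that attracts neutrophils. It measured 3731 and 3763 normalized counts in untreated cells, 676.7 and 873.9 with Dex, and 265.4 and 311.8 with both agents. Again no groups overlapped. It was 4.85-fold lower with Dex (-2.28 ± 0.10, adjusted p = 7.77e-08). Adding GW7647 lowered it a further 2.69-fold (-1.43 ± 0.12, adjusted p = 7.97e-05), the largest second step among the 9 genes. The total difference was 13.1-fold (-3.71 ± 0.12, adjusted p = 1.23e-08). Pf4 reads outnumbered Ppbp reads 3.86 and 4.12 to 1 in the untreated libraries, 5.96 and 4.10 to 1 with Dex, and 10.2 and 8.06 to 1 with both agents.

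Pf4 and Ppbp lie in a cluster of CXC chemokine genes, and of the 5 others examined there only Cxcl5, a neutrophil attractant, had enough counts to test. Its raw counts were 76 and 69 in untreated cells, 37 and 17 with Dex, and 9 and 6 with both agents. They fell in the same 2 steps as Ppbp (log2 difference -1.92 ± 0.26, adjusted p = 0.000163, then -1.55 ± 0.40, adjusted p = 0.0395). The second of these was not called by DESeq2 (-1.56). Cxcl1 and Cxcl15 had 0 counts in all 6 libraries, where up to 3 counts per library cannot be told from none, and Cxcl2 and Cxcl3 stayed under 10 counts.

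Of the 2 chains of the fibrinogen receptor, Itgb3 fell with Dex and Itga2b was not called, and both fell on adding GW7647. Itga2b, the alpha chain (CD41), measured 9579 and 9866 normalized counts in untreated cells, 9514 and 8432 with Dex, and 5973 and 5965 with both agents. The Dex libraries lay just below the untreated ones, while both libraries with GW7647 were well below all others. Its difference with Dex did not pass the test (-0.12 ± 0.06, 95% interval -0.25 to 0.02, adjusted p = 0.131). Of 13 alternative fits it was called only in the one lacking Dex replicate 1 (-0.20, with an adjusted p of 0.00788), and its sign turned when libraries were scaled by total count (0.01, adjusted p = 0.853). On adding GW7647 Itga2b fell 1.5-fold (-0.59 ± 0.06, adjusted p = 0.00023).

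Itgb3, the beta chain that Itga2b pairs with, measured 8001 and 8365 normalized counts in untreated cells, 4714 and 4475 with Dex, and 3711 and 3830 with both agents. The 3 groups were separate. It was lower 1.78-fold with Dex (-0.83 ± 0.05, adjusted p = 5.73e-07) and a further 1.22-fold with GW7647 (-0.29 ± 0.05, adjusted p = 0.00616), a second step that missed the threshold without Dex with GW7647 replicate 1 (-0.26, adjusted p = 0.0996). The ratio of Itga2b to Itgb3 reads within a library was 1.20 and 1.18 in untreated cells, 2.02 and 1.88 with Dex, and 1.61 and 1.56 with both agents. It was thus highest with Dex alone and did not overlap between any of the groups, although the difference between the chains was not itself tested.

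**Figure D2:**
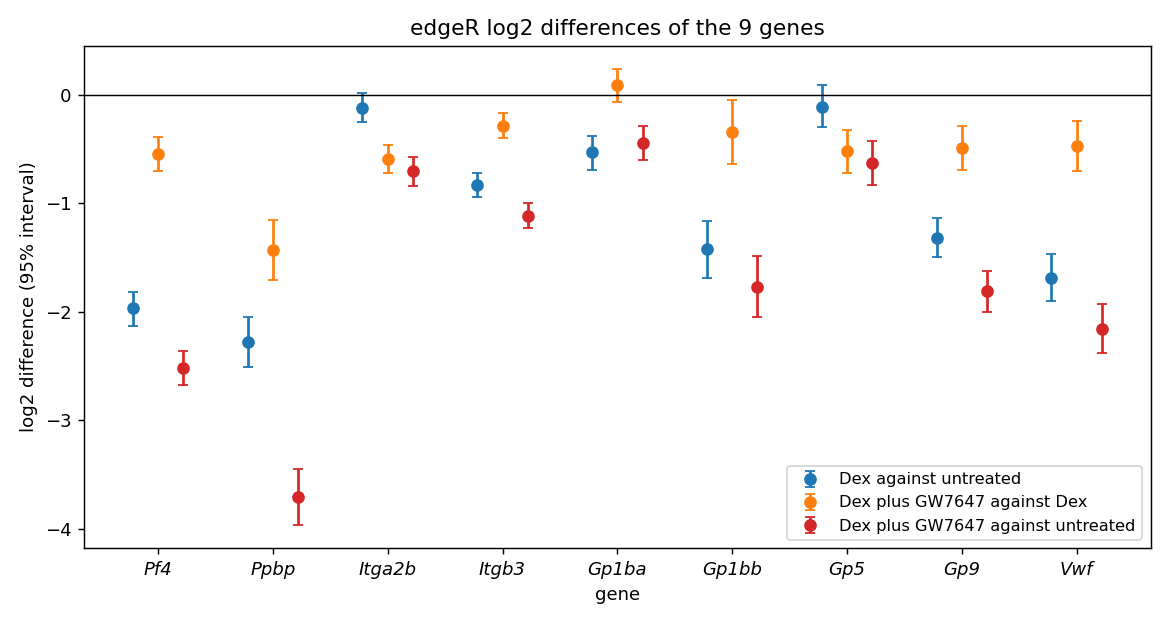
Log2 differences of the 9 genes (horizontal axis) in the 3 comparisons, with 95% intervals from the edgeR fit on the vertical axis; 0 is no difference. Itga2b and Gp5 lie at -0.12 and -0.11 for Dex against untreated (blue) and near -0.59 and -0.52 on adding GW7647 (orange), and Gp1ba is the single gene above 0 in that step (0.09).

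Of the 4 genes of the von Willebrand factor receptor complex, Gp1ba, Gp1bb and Gp9 fell with Dex, and Gp5 and Gp9 fell on adding GW7647. Gp1ba, whose product holds the binding site for von Willebrand factor, measured 1430 and 1419 normalized counts in untreated cells, 939.0 and 1033 with Dex, and 1005 and 1095 with both agents. It fell with Dex 1.45-fold (-0.53 ± 0.07, adjusted p = 0.000119), and the 2 treated groups overlapped. Adding GW7647 gave no called difference (0.09 ± 0.07, 95% interval -0.07 to 0.24, adjusted p = 0.474), nor in any of 13 alternative fits.

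Gp1bb, the partner bound to it by a disulfide bridge, measured 1183 and 1329 normalized counts in untreated cells, 528.5 and 403.2 with Dex, and 391.7 and 342.5 with both agents. Its fall with Dex was 2.68-fold (-1.42 ± 0.12, adjusted p = 5.78e-06). The libraries with GW7647 lay below both Dex libraries, but that difference did not pass the test (-0.34 ± 0.13, 95% interval -0.64 to -0.05, adjusted p = 0.139). It did pass when genes of any count were kept (-0.35, adjusted p = 0.00328) and without Dex replicate 2 (-0.51, adjusted p = 0.0121). Exons of Sept5 overlap Gp1bb on the same strand over 1902 of its 2087 exon bases in the GENCODE M21 annotation, and those of Gm49601 over 867. Reads there may have been divided between the genes or dropped, and Gp1bb levels are uncertain to that extent. Sept5 itself had 65 counts in each untreated library and 19 to 40 in the treated ones.

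Gp9, a small subunit needed for surface display of the complex, measured 1421 and 1656 normalized counts in untreated cells, 633.5 and 600.1 with Dex, and 435.0 and 442.9 with both agents. The groups did not overlap. Gp9 was lower 2.49-fold with Dex (-1.32 ± 0.08, adjusted p = 6.65e-07) and 1.41-fold again with GW7647 (-0.49 ± 0.09, adjusted p = 0.0067). Without Dex with GW7647 replicate 1 the second step was about as large but not called (-0.48, adjusted p = 0.0649).

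Gp5, the subunit that thrombin cleaves, measured 2584 and 3008 normalized counts in untreated cells, 2802 and 2384 with Dex, and 1852 and 1769 with both agents. Untreated and Dex libraries overlapped, and both libraries with GW7647 were lower than all of them. The difference with Dex was not called (-0.11 ± 0.09, 95% interval -0.30 to 0.09, adjusted p = 0.331), turned sign with total count scaling (0.02) and without untreated replicate 2 (0.01), and was called without Dex replicate 1 (-0.23, adjusted p = 0.0387). Adding GW7647 lowered Gp5 1.43-fold (-0.52 ± 0.09, adjusted p = 0.00492).

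Within a library, Gp1ba reads numbered 1.21 and 1.07 for each Gp1bb read in untreated cells, 1.78 and 2.56 with Dex, and 2.56 and 3.20 with both agents. Gp5 reads numbered 1.82 for each Gp9 read in both untreated libraries and 3.97 to 4.42 in the 4 treated ones. Both ratios were higher in each treated library than in each untreated one, and scaling between libraries cannot move them. The overlap of Gp1bb with Sept5 limits the first of them. An exact permutation test of 2 libraries against 2 cannot go below p = 0.333, and these ratios carry no test.

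**Figure D3:**
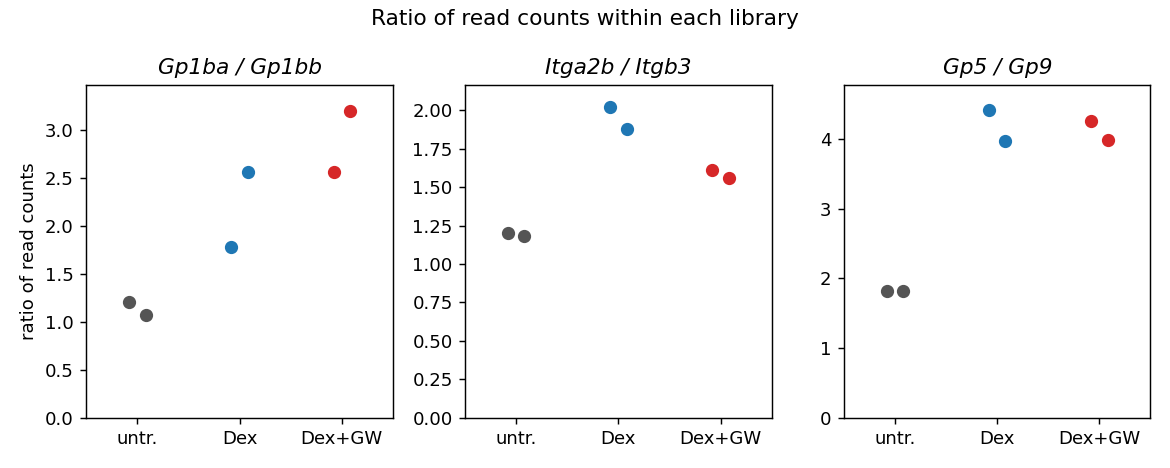
Ratio of raw read counts between partner genes within each library (vertical axes from 0), by group; each point is 1 library. Gp5 to Gp9 stood at 1.82 in both untreated libraries and at 3.97 to 4.42 in the treated libraries, and Itga2b to Itgb3 was highest with Dex, at 2.02 and 1.88.

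Vwf, the ligand of that complex and also a product of endothelial cells, measured 3351 and 3559 normalized counts in untreated cells, 1188 and 947.9 with Dex, and 816.8 and 725.2 with both agents. Each group was separate from the others. It was 3.23-fold lower with Dex (-1.69 ± 0.10, adjusted p = 3.81e-07). The second step was 1.39-fold (-0.47 ± 0.10, adjusted p = 0.0184) and lost its call without Dex replicate 1 (-0.29, adjusted p = 0.0591) or without Dex with GW7647 replicate 2 (-0.39, adjusted p = 0.143).

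By these calls the 9 genes fell into 3 patterns. Pf4, Ppbp, Itgb3, Gp9 and Vwf were called lower in both steps. Gp1ba and Gp1bb were called lower with Dex only, and Itga2b and Gp5 only on adding GW7647. The patterns rest on the threshold, and differences between genes were not tested. On adding GW7647, Gp1bb (-0.34 ± 0.13, not called) and Vwf (-0.47 ± 0.10, called) were close. The calls of Itgb3, Gp9 and Vwf in that step were lost in some alternative fits. With both agents against untreated cells, Itgb3 was 2.17-fold, Gp9 3.51-fold, Gp1bb 3.41-fold and Vwf 4.47-fold lower. Itga2b, Gp5 and Gp1ba had the smallest total differences, at 1.63-fold, 1.54-fold and 1.36-fold. Together the 9 genes took 0.0995 and 0.105% of counts in untreated cells, 0.0599 and 0.0538% with Dex, and 0.0407 and 0.0400% with both agents.

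Levels of different genes were compared as CPM per kilobase of the longest protein-coding transcript. In untreated cells Pf4 stood highest at 586.5 ± 30.4 (SD, n = 2), at percentile 99.3 of 12133 genes, followed by Ppbp at 79.73 ± 0.473 and Itga2b at 65.19 ± 1.36. Then came Gp9 (40.24 ± 4.35), Itgb3 (32.6 ± 1.02), Gp5 (29.33 ± 3.14), Gp1bb (13.88 ± 1.13), Gp1ba (12.11 ± 0.0696) and Vwf (9.013 ± 0.384). The 2 libraries of each neighbour in this order did not overlap with those of the next. The place of Gp1bb is uncertain in each group, since exons of Sept5 overlap most of its length. With Dex, Pf4 remained first at 149.3 ± 12.5 and Itga2b (60.17 ± 5.13) and Gp5 (27.2 ± 3.10) came next, while Ppbp dropped to the fifth place at 16.5 ± 2.97, where its libraries overlapped those of Itgb3 (18.31 ± 0.674) and Gp9 (16.13 ± 0.618). Gp1ba (8.386 ± 0.567), Gp1bb (5.149 ± 0.98) and Vwf (2.786 ± 0.443) followed without overlap. With both agents Ppbp stood at 6.141 ± 0.699, below Gp1ba at 8.927 ± 0.543, Gp9 at 11.48 ± 0.145, Itgb3 at 15.02 ± 0.334, Gp5 at 18.99 ± 0.615 and Itga2b at 40.03 ± 0.0377. Pf4 was still first at 102.1 ± 5.08, at percentile 94.3, and Gp1bb (4.058 ± 0.385) and Vwf (2.011 ± 0.169) were last.

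Beyond the 9 genes, 63 tested genes of 4 further lists of platelet and megakaryocyte genes went mostly the same way. With Dex 45 were lower and 10 higher, beside the 26.0% and 25.5% of all tested genes, and on adding GW7647 30 were lower and none higher, beside 7.58% and 2.15%. With both agents 50 were lower and 5 higher, beside 25.1% and 24.7% of all tested genes. These shares of all tested genes also apply to the counts of each list below. Their median log2 difference was -0.79 with Dex and -0.33 on adding GW7647. The count of 30 was 19 without Dex with GW7647 replicate 1.

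Of 17 further platelet receptors tested, 14 fell and 1 rose with Dex and 9 fell with GW7647. Cd9, a tetraspanin abundant on platelets, went from 4433 ± 11.5 (SD, n = 2) normalized counts to 1576 ± 45.8 with Dex and 1163 ± 43.3 with both agents (log2 differences -1.49 and -0.44). P2rx1, an ATP-gated channel, went from 1424 ± 12.0 to 519.6 ± 34.3 and 323.9 ± 16.3 (-1.46 and -0.68). F2rl2, a thrombin receptor, and Treml1, an alpha granule membrane protein, also fell in both steps, with log2 differences of -1.49 and -1.67 for Dex and -0.29 and -0.54 on adding GW7647. The receptor that rose with Dex was Ptger3, for prostaglandin E2 (0.41 ± 0.05, adjusted p = 0.000153), and it fell again with GW7647 (-0.41 ± 0.05, adjusted p = 0.00105).

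Among 14 other granule and secreted proteins, 8 fell and 5 rose with Dex, and 7 fell with GW7647. Thbs1, the adhesive glycoprotein thrombospondin, had 17870 ± 134 normalized counts in untreated cells, 5126 ± 8.16 with Dex and 3978 ± 44.3 with both agents (-1.80 and -0.37). Coagulation factor V (F5), clusterin (Clu) and multimerin (Mmrn1) fell with Dex (-1.95, -1.80 and -1.72) and again with GW7647 (-0.55, -0.33 and -0.51). F13a1, the A chain of factor XIII, and Srgn, a granule proteoglycan found in many blood cells, rose with Dex (1.09 and 0.57) and fell with GW7647 (-0.81 and -0.72). These 2 genes and Ptger3 were named after their values were seen.

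Of 16 genes for the platelet cytoskeleton, signalling and enzymes, 10 fell and 2 rose with Dex and 11 fell with GW7647. Tubb1, the beta tubulin of the platelet marginal band, went from 1514 ± 86.6 normalized counts to 365.0 ± 8.84 with Dex and 232.3 ± 21.2 with both agents (-2.05 and -0.64). Rasgrp2, which activates the small GTPase Rap1, the lipoxygenase Alox12 and the adaptor Lcp2 fell with Dex (-1.62, -1.75 and -1.34) and again with GW7647 (-0.58, -0.73 and -0.82). The 2 genes that rose with Dex were Apbb1ip (0.95) and Fermt3 (0.39). On adding GW7647 Apbb1ip fell (-0.26) and Fermt3 was not called (-0.05). Both were named after their values were seen.

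Of 16 megakaryocyte transcription factors, 13 fell and 2 rose with Dex, and 3 fell with GW7647. With total count scaling, which shifted the median of all genes to 0.14, 10 of the 16 fell with Dex. Nfe2, a factor required for platelet release, went from 20880 ± 24.5 normalized counts to 13920 ± 216 with Dex (-0.58 ± 0.04, adjusted p = 2.49e-06) and stood at 12550 ± 221 with both agents (-0.15 ± 0.04, adjusted p = 0.0599 against Dex). Mafk, which can pair with Nfe2, and the factors Meis1 and Runx1 fell with Dex (-0.81, -1.42 and -0.69), and their differences on adding GW7647 were -0.11, -0.05 and 0.11, none of them called. The 2 factors that rose with Dex were Gata2 (0.27) and Gfi1b (0.26). On adding GW7647 Gata2 fell (-0.29) and Gfi1b was not called (0.16). Gata1 differed by -0.19 with Dex, and by -0.06 with total count scaling. These last factors were named after their values were seen. Whether the response to GW7647 differed between factors and platelet proteins was not tested.

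**Figure D4:**
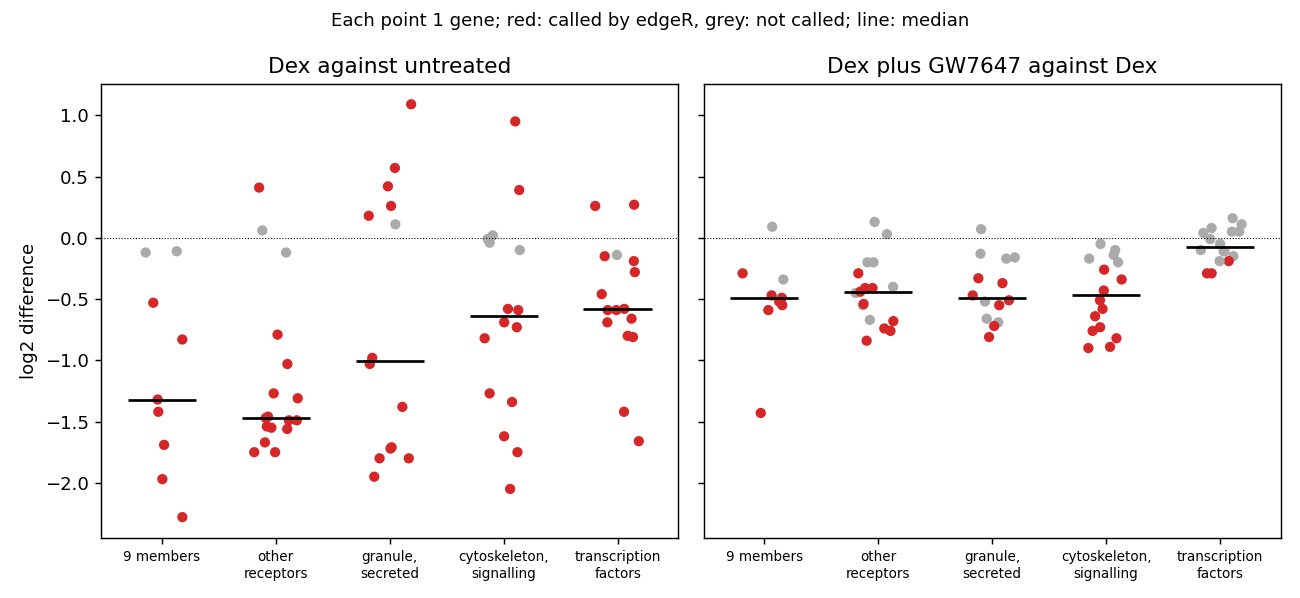
Log2 differences (vertical axis) of the 9 genes and of 4 other lists, each point 1 gene, for Dex against untreated (left) and for adding GW7647 to Dex (right); red points were called by edgeR, grey ones not, and lines are medians. On the right the medians of the 9 genes and of the 16 transcription factors are -0.49 and -0.07.

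Over the 6 libraries, the centred log2 profile of Pf4 was matched most closely by Rassf4, Angptl4, Tubb1, Ndrg2 and Pdzk1ip1, at root mean square distances of 0.082, 0.092, 0.099, 0.104 and 0.111 among 11277 genes. The nearest of the 9 genes to Pf4 was Vwf, at 0.161. Itga2b was matched most closely by Smim5, Adap1, Hdac7, Lacc1 and Dgka (0.046, 0.050, 0.052, 0.054 and 0.057), and Gp5 was its nearest among the 9 at 0.067. Likeness here rests on 3 groups of 2 libraries, and many genes share such a step pattern.

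Markers of other cells that such a sort could hold moved with the groups. The 9 neutrophil granule genes summed to 14930 and 15970 normalized counts in untreated cells, 7405 and 7085 with Dex, and 4381 and 4482 with both agents; 7 fell with Dex and 8 with GW7647, Mpo from 8200 to 3463 and 2356. Mpo, Ctsg, Prtn3 and S100a8, which encode proteins of neutrophil granules or cytosol, fell with Dex (-1.24, -1.21, -1.09 and -0.76) and on adding GW7647 (-0.56, -0.82, -0.82 and -0.79). The 9 monocyte and macrophage genes summed to 2051 and 2042, then 878.1 and 919.8, then 589.4 and 582.2, with C1qa at 0 and C1qb and Mrc1 under 10 counts in all libraries. Of the 6 tested, 4 fell and 1 rose with Dex and 4 fell with GW7647. With DESeq2, 0 were called higher with Dex. Lyz2 (lysozyme), Ccr2 and Ly6c2 fell in both steps (-1.85, -0.99 and -1.22, then -0.77, -1.02 and -1.30), and Csf1r fell in the second (-0.18, not called, then -0.52). These sums, like that of the 9 platelet genes, were highest in untreated cells and lowest with both agents. That order was not particular to them, since the endothelial and erythroid sums had it too. The 9 erythroid genes summed to 3280000 and 3598000 in untreated cells, 1443000 and 1389000 with Dex, and 1335000 and 1319000 with both agents.

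Mast cell and basophil genes summed to 6571 and 6563 normalized counts in untreated cells, 10220 and 9881 with Dex, and 5817 and 5733 with both agents. Within that list 7 of 9 tested genes fell and 2 rose with Dex, and 7 fell on adding GW7647, with median log2 differences of -2.01 and -1.18; DESeq2 called 1 higher with Dex. The proteases Cpa3, Cma1 and Mcpt8 fell with Dex (-2.07, -2.01 and -2.73) and again with GW7647 (-0.49, -1.88 and -0.91). Hdc, the histidine decarboxylase, rose from 1749 to 8683 normalized counts and made up most of the sum with Dex, and it fell on adding GW7647 (-0.79). Endothelial genes summed to 2374 and 2411, 1981 and 1976, and 1473 and 1378, of which Egfl7, also made by blood progenitors, gave most; Cdh5 and Emcn were under 10 counts in all libraries. Of 5 endothelial genes tested, 3 fell and 1 rose with Dex and 3 fell with GW7647, among them Pecam1, a protein that platelets also carry, from 592.0 to 235.2 and 134.6. The rise was that of Egfl7 (0.15 ± 0.06, adjusted p = 0.0413), and with RLE scaling or DESeq2 0 of the 5 rose. Kdr and Tie1 fell with Dex (-1.06 and -1.46) and were not called on adding GW7647 (-0.37 and -0.25). Hepatoblast genes summed to 86.72 to 259.3, with Alb and Ttr under 10 counts, and of 3 tested, Apoa1 and Afp rose with Dex (4.42 and 1.72). On adding GW7647, Afp and Dlk1 fell (-1.22 and -1.13) and Apoa1 was not called (-0.56), whereas 0 of the 3 were called lower with DESeq2 and 3 with RLE or total count scaling.

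The 9 erythroid markers, which check the labelled cell type, were abundant in every library, and 7 of them fell with Dex while 1 fell and 1 rose on adding GW7647. Slc4a1, the red cell anion exchanger, went from 159600 to 58900 normalized counts with Dex and 66430 with both agents. Hbb-bs and Hbb-bt, for beta globins, and Alas2, for heme synthesis, fell with Dex (-1.17, -1.39 and -0.91), and on adding GW7647 Hbb-bt alone of these fell (-0.36), beside -0.06 for Hbb-bs and -0.07 for Alas2. Among genes of the sort antigens, Kit rose with Dex (1.56 ± 0.04, adjusted p = 4.55e-09) and Tfrc, for CD71, fell (-0.66 ± 0.05, adjusted p = 3.95e-06). Cd34, Fcgr3 and Fcgr2b, whose proteins were selected against as Itga2b's was, fell with Dex (-1.01, -1.12 and -0.79), and on adding GW7647 Cd34 and Fcgr2b fell again (-0.58 and -0.69) while Fcgr3 was not called (-0.26). Ly6a, for Sca-1, which the sort had also selected against, had 1 count in each untreated library, 16 and 11 with Dex, and 2 and 1 with both agents. It rose with Dex (3.13 ± 0.67, adjusted p = 0.003) and fell on adding GW7647 (-2.80 ± 0.60, adjusted p = 0.0166). With DESeq2, 1 of these 6 sort antigen genes was called higher with Dex in place of 2, and 1 lower on adding GW7647 in place of 3. The part of other cells, or of a change in the mix of progenitors, in the platelet gene differences was not tested.

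**Figure D5:**
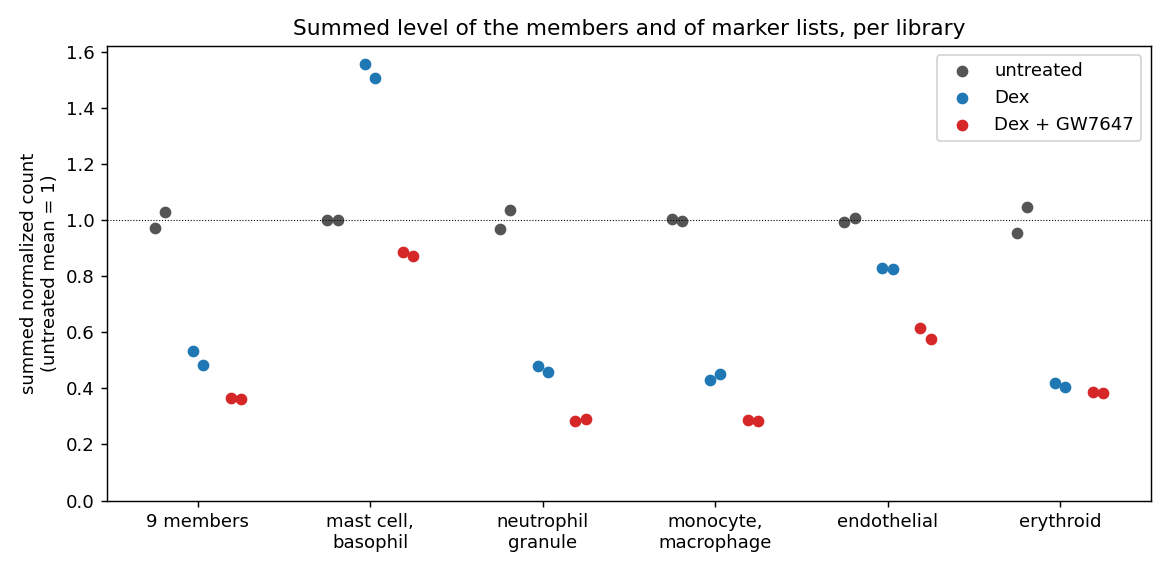
Summed normalized counts of the 9 genes and of 5 marker lists in each library, divided by the mean of the untreated libraries (vertical axis from 0, untreated mean at 1). The 9 genes and the neutrophil, monocyte and endothelial lists are lower with Dex than in untreated cells and lower again with both agents. The mast cell and basophil list is highest with Dex. The erythroid list is lower in both treated groups than in untreated cells and differs little between them.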

How the data were processed

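PolyA libraries of 6 samples in 3 groups were used. Per the submitters' processing notes, the authors aligned reads with TopHat 1.4.1, counted them with HTSeq (build mm9, NCBIM37) and compared groups with DESeq; the strand setting is not given in the sources used here. The 2 deposited tables hold read counts per gene, with DESeq-normalized signal, fold ratios and p-values by the authors. The counts of the libraries in both tables were identical. Of 37620 genes, 32897 matched a symbol. Counts were fitted with edgeR 4.0.16 (quasi-likelihood test, TMM scaling, filterByExpr with a minimum count of 10, all 6 libraries in 1 fit of group means), tested on simulated data first. Alternatives used DESeq2 1.42.0, limma 3.58.1 (limma-trend on log2 CPM, prior count 2), other scalings, genes of any count, 4 libraries at a time, a replicate block, the authors' deposited adjusted p-values and each library left out. The 9 genes and all lists were chosen with earlier results of these data known. All 9 genes were named. From each other list the 4 called genes with the smallest p were named, together with all CXC neighbours and sort antigen genes, and for Pf4 and Itga2b the 5 genes of nearest profile among genes averaging 50 or more normalized counts. Lengths came from GENCODE M21 and promoters from RefSeq.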

Additional observations from a re-analysis of the deposited data

How the results depend on the processing

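The numbers of the 9 genes called stayed within 1.5 times of those reported in every alternative that gave them: 7 to 9 lower with Dex, 5 to 8 lower on adding GW7647 and 9 lower with both agents when a library was left out. With the replicate block they were 7, 7 and 9, and the blocked fit called 28 of the other platelet and megakaryocyte genes on adding GW7647 against 30 without it. The deviations of same-numbered libraries correlated weakly across genes, at -0.212 (untreated and Dex), -0.046 (untreated and both agents) and 0.149 (Dex and both agents). With 2 libraries per group this cannot show whether the numbers pair libraries, and the labels do not say. The block changed no call of the 9 genes. For the other platelet and megakaryocyte genes, leaving out a library gave 19 to 30 lower on adding GW7647. The Dex difference of Itga2b was 0.015 and that of Gp5 0.023 with total count scaling, and Gp5 ranged from -0.228 to 0.006 as libraries were left out. Total count scaling moved the median of all genes by 0.139 with Dex and 0.138 with both agents, and the share of higher calls from 49.5 to 67.8% and from 49.6 to 66.8%. Over all genes, 1374 were called on adding GW7647, 2085 with genes of any count, and fewer when either library of Dex with GW7647 was left out. In each fit that leaves out a library, here and above, a group rests on 1 library assumed to vary like the others. In the authors' deposited table, Gp1ba, Gp1bb and Vwf were not called in that step (adjusted p of 1, 0.77 and 0.256). Depth limits none of the 9 genes, whose lowest raw count was 264.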
